A study of Caenorhabditis elegans with 2 samples.

Results

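The authors selected 774 ELT-3 peaks in whole worm larvae by the irreproducible discovery rate (IDR), which scores agreement between replicates. Of these, 259 (33.5%) were distal intergenic peaks, away from the starts of coding genes. A peak was counted here when its summit lay outside every protein-coding gene and outside the window from 1000 bases upstream to 200 bases downstream of every start of a protein-coding transcript. The other 515 peaks were made up of 231 intergenic peaks in that promoter window and 284 peaks inside coding genes. ELT-3 was immunoprecipitated with its chromatin and the DNA sequenced (ChIP-seq) from Caenorhabditis elegans strain OP75, genotype unc-119(ed3) III; wgIs75, a stable transgenic line that expresses ELT-3 fused at its C terminus to GFP-FLAG. Larvae were at the L3 stage, with both sexes pooled, and there was 1 group of 2 biological replicates with no second genotype, treatment or stage. The factor profiled was the product of a transgene in 1 line, and the antibody label names elt-3 and not the tag. Whole animals were used, so the tissue behind a peak is not known from these data. The lists give no read counts, which leaves depth unknown, and the 2 samples support no test between conditions.

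GATA factors are zinc finger proteins that bind DNA around the letters GATA. ELT-3 is the GATA factor known for its expression in the worm epidermis, the tissue that secretes the collagen cuticle. Regulatory elements far from a promoter can act on either neighbouring gene or on one further away, and a peak's position alone does not show which gene, if any, it regulates. Both flanking genes are therefore given for each peak, joined by a slash in chromosome order.

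Windows of 201 bases centred on the summit are printed for 9 distal peaks that carry the main patterns, from the RefSeq sequence of WBcel235 (ce11), plus strand, 5′ to 3′. A GATA site here means AGATAA or AGATAG or TGATAA or TGATAG on either strand, with overlapping matches all counted. Capitals mark GATA sites in the first 6 windows, and a site on the minus strand appears as its reverse complement. The first 4 are among the strongest distal peaks, the fifth lies in the group of peaks around mdl-1, and the sixth held more sites than any other distal window. The last 3 windows are strong distal peaks without a GATA site, and their capitals mark CCTGCGCG or its reverse complement CGCGCAGG.
Y37A1A.2/Y37A1A.4, chrIV:13919303-13919503: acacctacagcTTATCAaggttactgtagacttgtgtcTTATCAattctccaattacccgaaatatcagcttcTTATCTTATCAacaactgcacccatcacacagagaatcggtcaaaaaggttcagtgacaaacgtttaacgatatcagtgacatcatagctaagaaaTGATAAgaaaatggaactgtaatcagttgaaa
B0334.20/npr-41, chrII:11502033-11502233: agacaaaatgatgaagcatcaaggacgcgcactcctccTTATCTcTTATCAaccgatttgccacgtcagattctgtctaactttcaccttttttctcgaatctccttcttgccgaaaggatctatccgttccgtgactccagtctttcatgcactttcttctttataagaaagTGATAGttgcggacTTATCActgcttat
pde-2/R08D7.7, chrIII:8986936-8987136: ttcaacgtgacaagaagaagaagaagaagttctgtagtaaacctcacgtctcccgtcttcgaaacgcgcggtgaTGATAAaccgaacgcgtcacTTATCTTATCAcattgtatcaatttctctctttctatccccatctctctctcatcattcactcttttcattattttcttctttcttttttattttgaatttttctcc
tag-290/nlp-24, chrV:11614851-11615051: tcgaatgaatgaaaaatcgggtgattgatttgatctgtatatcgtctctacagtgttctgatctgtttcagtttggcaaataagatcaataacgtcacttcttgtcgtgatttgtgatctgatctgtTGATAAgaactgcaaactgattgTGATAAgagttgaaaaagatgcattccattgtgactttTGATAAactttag
R03E9.2/mdl-1, chrX:6736362-6736562: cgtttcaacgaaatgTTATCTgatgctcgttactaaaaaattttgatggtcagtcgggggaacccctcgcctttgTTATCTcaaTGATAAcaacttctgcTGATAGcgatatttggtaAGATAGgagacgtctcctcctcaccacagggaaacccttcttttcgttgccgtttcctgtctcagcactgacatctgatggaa
T01B7.9/rol-6, chrII:8730438-8730638: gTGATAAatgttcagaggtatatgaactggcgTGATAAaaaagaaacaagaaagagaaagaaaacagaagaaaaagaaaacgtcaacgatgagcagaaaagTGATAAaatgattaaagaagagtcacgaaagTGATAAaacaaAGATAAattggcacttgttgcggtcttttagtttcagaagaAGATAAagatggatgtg
W04G3.11/W02H3.3, chrX:11094124-11094324: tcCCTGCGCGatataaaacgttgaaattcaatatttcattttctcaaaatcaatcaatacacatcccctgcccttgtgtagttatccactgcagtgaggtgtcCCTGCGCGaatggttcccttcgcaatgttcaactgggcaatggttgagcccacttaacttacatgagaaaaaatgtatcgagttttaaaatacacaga
F22H10.2/F22H10.11, chrX:16682029-16682229: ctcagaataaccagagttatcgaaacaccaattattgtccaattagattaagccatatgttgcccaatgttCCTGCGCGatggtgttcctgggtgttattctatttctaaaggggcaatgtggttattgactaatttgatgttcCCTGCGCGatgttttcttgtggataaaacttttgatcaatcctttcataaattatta
C34D10.1/xol-1, chrX:8036300-8036500: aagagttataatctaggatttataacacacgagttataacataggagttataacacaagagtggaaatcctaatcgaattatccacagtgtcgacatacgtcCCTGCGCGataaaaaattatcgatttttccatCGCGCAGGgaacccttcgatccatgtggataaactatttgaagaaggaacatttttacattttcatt

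Most distal peaks carried a GATA site at the summit. Of 259 distal peaks, 197 had a site no more than 100 bases from the summit (76.1%, 95% exact Clopper-Pearson interval 70.4 to 81.1). Windows of the same length centred 500 bases to the left of these summits held a site in 102 of 259 (39.4%), and those to the right in 100 (38.6%). A site at the summit but not in the left flank was found in 124 peaks, against 29 with the reverse (exact McNemar test, adjusted p = 3.42e-15 over both flanks). Against the right flank the counts were 126 and 29 (exact McNemar test, adjusted p = 2.58e-15). Of all 120742 windows of 201 bases tiled over sequence that meets the distal rule, 35.7% held a site, a share close to that of the flanks. These tests treat peaks as units and describe the list, not the spread between animals.

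The spelling TGATAA made up 255 of the 438 sites in distal windows (58.2%), followed by AGATAA with 92, AGATAG with 48 and TGATAG with 43. TGATAA was present in 158 distal windows (61.0%), against 17.4% of the tiled windows. In the 4 windows printed first, most sites are TGATAA. Sites were often multiple, with 2 or more in 136 distal windows (52.5%), against 9.15% of the tiled windows. There were 62 distal peaks with no site, 61 with 1, 68 with 2, 43 with 3, 14 with 4, 10 with 5 and 1 with 6. The window with 6 sites lies between T01B7.9 and rol-6, a cuticle collagen gene that sets body shape, and 4 of its 6 sites are TGATAA. Among the 197 peaks with a site, the nearest was a median of 22.5 bases from the summit, and in 106 (53.8%) it was within 25 bases. Adjacent sites were a median of 28 bases apart over 241 pairs, and 164 pairs (68.1%) had both sites on the same strand. Other IDR peaks gave nearly the same spacing, a median of 27 bases, and 67.7% of pairs on the same strand.

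**Figure D1:**
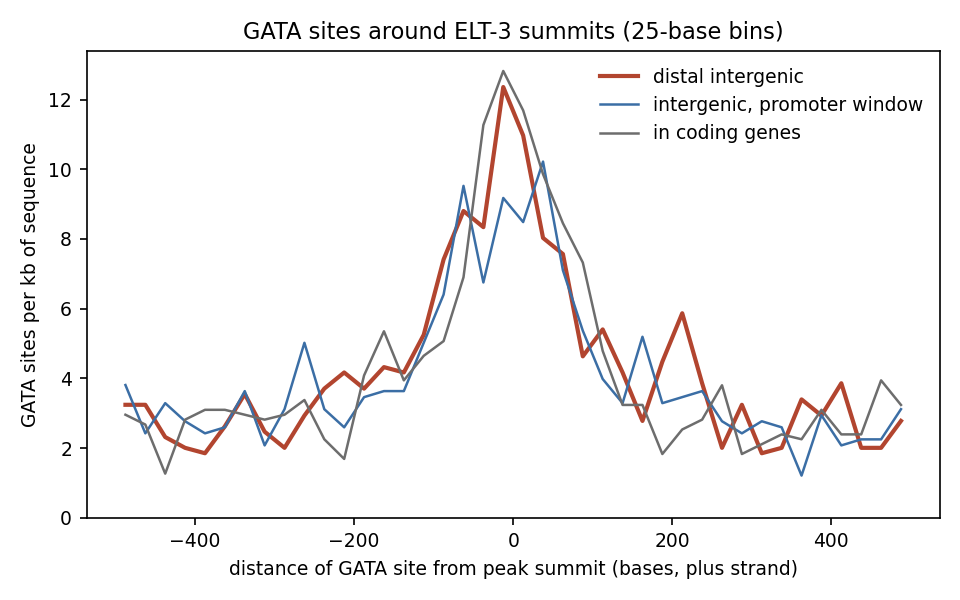
GATA sites per kb of sequence in bins of 25 bases around the summit, on the plus strand, for distal intergenic peaks (n = 259), intergenic peaks in the promoter window (n = 231) and peaks in coding genes (n = 284). Distal peaks reached 12.4 sites per kb just left of the summit, and lay between 1.85 and 3.55 sites per kb in the outer bins beyond 300 bases to the left.

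Distal peaks were not distinguishable from the rest of the list by how often they held a site. The share was 76.1% in distal peaks and 73.4% in the other 515 (378 peaks; odds ratio 1.15, Fisher exact test, with adjusted p = 0.446 over 4 comparisons of distal with other peaks). Peaks of replicate 2 alone gave an odds ratio of 1.48 with an adjusted p of 0.0491 (Fisher exact test; range of adjusted p over 12 alternatives 0.0491 to 1.0, of the odds ratio 0.871 to 1.56). Taken apart, the other peaks held a site in 67.1% of intergenic promoter peaks and in 78.5% of peaks inside coding genes. Against the intergenic promoter peaks alone the odds ratio was 1.56, with an adjusted p of 0.138 (Fisher exact test). Within distal peaks, the signal and the number of sites moved in the same direction. Signal is the peak caller's value for each peak in the authors' IDR list, on a scale not given in the sources used here. Its median was 35.8 in distal peaks with no site, 36.9 with 1 site, 37.8 with 2 and 40.3 with 3 or more. With distal peaks cut by signal into 4 groups, from the strongest to the weakest, a site was present in 52 of 65, 53 of 65, 48 of 65 and 44 of 64, and the intervals of these shares overlap.

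All 6-base sequences were then compared between distal summit windows and both of their own flanks, each counted with its reverse complement. Of 2080 sequences tested, 71 were more frequent at summits than in both flanks (3.41%) and 60 were less frequent (2.88%; exact McNemar tests, Benjamini-Hochberg adjusted p under 0.05 on each side). GATAAG led, in 48.3% of distal summit windows, against 6.56% of left and 8.49% of right flanks (exact McNemar test, larger adjusted p of the 2 sides 5.86e-19). Of the 48 sequences that contain GATA on either strand, 13 were among the 71. A second set was made of G and A on one strand, with 20 of 64 such sequences among the 71. GAGAGA was present in 92 distal windows (35.5%), against 11.97% of left flanks, 10.04% of right flanks and 10.16% of tiled windows. AAGAGA was present in 43.2%, against 15.1% and 14.7% of the flanks. These sets were not exclusive, since GAGAGA occurred in 74 of 197 distal windows with a GATA site (37.6%) and in 18 of 62 without one (29.03%). Sequences of A and T alone went the other way, with 27 of 36 less frequent at summits and 0 more frequent. AAAATT, for example, was in 29.3% of distal summit windows, against 64.5% of left and 72.6% of right flanks. The sets by letters were drawn up with earlier results known and carry no test of their own.

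No 6-base sequence passed a test of the difference between distal and other IDR peaks. After adjustment 0 of 2080 passed (0.0%; Fisher exact tests, smallest adjusted p = 0.729), with 121 at an unadjusted p under 0.05. Base composition was also close, with 39.4 ± 5.83% G and C in distal windows and 40.1 ± 6.04% in the others (SD over 259 and 515 peaks). On average 16.5% of the bases of a distal window were soft-masked as repeats in the reference, against 40.3% of all sequence that meets the distal rule. In other IDR peaks the mean was 17.9%.

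The highest signals of the whole IDR list were at distal peaks. Distal signals ran from 29.5 to 133, with a median of 37.4 and quartiles of 33.03 and 46.3. In the other 515 peaks the median was 36.6 and the highest value 99.6. The bulk of the distributions was not distinguishable, since 135 of 259 distal peaks (52.1%) and 252 of 515 others (48.9%) lay above the median of the list, 36.9 (Fisher exact test, odds ratio 1.14, adjusted p = 0.446). Only the top 3 distal peaks lay above every other peak.

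**Figure D2:**
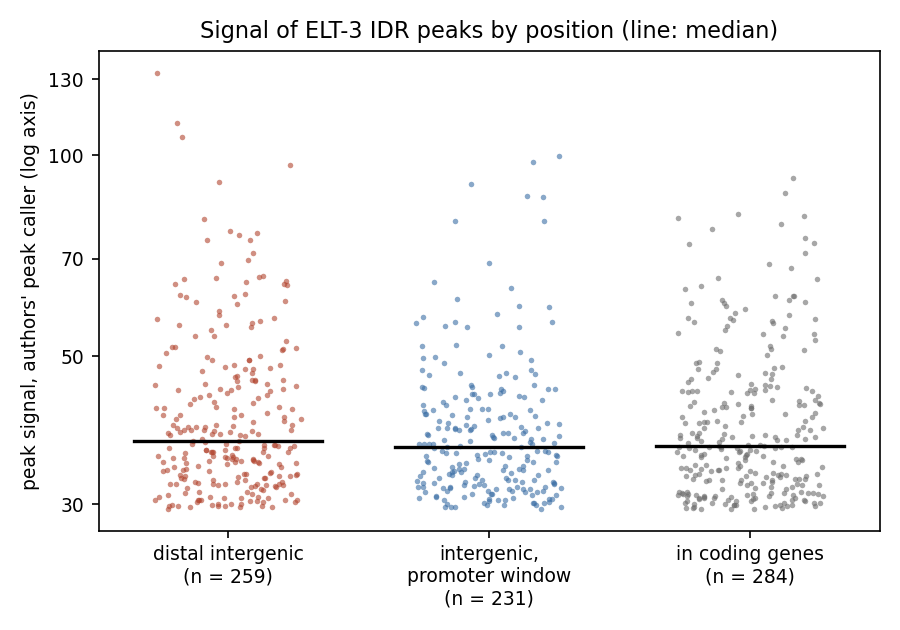
Peak signal from the authors' peak caller (log axis) for each IDR peak, with distal intergenic peaks at the left (n = 259), intergenic promoter peaks in the middle (n = 231) and peaks in coding genes at the right (n = 284). Black lines are medians, at 37.4, 36.5 and 36.7, and 3 distal peaks stand above 100.

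The strongest distal peak, at chrIV:13919233-13919572, had a signal of 133 in the IDR list, 82.8 in replicate 1 and 51.1 in replicate 2. It was first in both replicate lists. It lies between the divergent genes Y37A1A.2 and Y37A1A.4, 6374 bases from the start of Y37A1A.2, in a gap of 21356 bases, and its window, printed first, holds 5 GATA sites. The next, between B0334.20 and npr-41, a neuropeptide receptor family gene, had a signal of 112 (64.2 in replicate 1 and 46.8 in replicate 2) and 4 sites. The third, between the converging ends of W04G3.11 and W02H3.3, had 107 (53.7 and 46.9 in replicates 1 and 2) and no GATA site. All 3 were therefore high in each replicate on its own. A peak between mstr-1 and nars-1, the asparaginyl-tRNA synthetase gene, followed with 96.8 (54.3 in replicate 1 and 42.03 in replicate 2). The gap between pde-2, a cyclic nucleotide phosphodiesterase gene, and R08D7.7 held a peak of 91.3 (53.7 and 37.8) and a weaker one of 50.6 (32.6 and 13.6), each with 3 sites.

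Among the remaining peaks of the 20 strongest, the one upstream of nlp-24 had a signal of 76.5 (44.4 in replicate 1 and 30.7 in replicate 2). nlp-24 encodes a short secreted peptide of a family with antimicrobial members in the epidermis. All 3 sites in its printed window are TGATAA, and its other neighbour, tag-290, ends 63 bases from the summit. The peak between ZC250.4 and let-418, which encodes a Mi-2 chromatin remodeller, had 68.9 (43.3 and 29.3), 3687 bases from the start of let-418. A peak 5228 bases upstream of ptc-3, a Patched-family gene, had 65.5 (41.2 and 23.01), with Y110A2AL.5 as its other neighbour. A second in the same gap had 30.4 (20.4 and 10.9). Between ZK899.6 and gap-2, a gene for a Ras GTPase-activating protein, a signal of 71.3 was higher in the replicate 2 list (44.7) than in the replicate 1 list (28.5). The replicate 2 value was the larger in 2 of the 20 strongest distal peaks, and the scales of the lists may differ. The peak between cbl-1, which encodes cystathionine beta-lyase, and lin-41, a heterochronic gene that times larval development, had 64.8 (28.3 and 35.3) and 5 sites. A peak between gcy-12, a receptor guanylyl cyclase gene, and vhp-1, a MAP kinase phosphatase gene, closed the 20 at 64.6 (30.6 and 28.1). The others flank C34D10.1/xol-1, F22H10.2/F22H10.11, F45D3.1/F45D3.2, C08E8.10/C08E8.3, W06H8.6/K08B12.3, C17G10.6/C17G10.7, F01G10.9/nspd-7, srlf-26/nyn-1 and del-8/C11E4.6, with signals from 65.2 to 80.2.

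Each replicate list held 30000 regions, background included, and a peak was given a replicate's value where a summit of that list lay inside it. Replicate 1 had a summit in 258 of the 259 distal peaks, with values from 8.69 to 82.8 and a median of 23.3, against a median of 8.18 for its whole list. Replicate 2 had one in 255, with values from 5.19 to 51.1 and a median of 15.04, against 5.91 for its whole list. The replicate 2 values of 7 distal peaks were under that list's median, and in replicate 1 this held for none of 258. Across the 254 distal peaks with both values, Spearman's rho was 0.122, and Pearson's r of log2 values was 0.202. This is a description over peaks chosen by the authors from both replicates together. The effect of that choice on the correlation was not tested. The 774 strongest regions of replicate 1 overlapped 210 distal peaks (81.1%) and those of replicate 2 overlapped 159 (61.4%), while 11 distal peaks (4.25%) overlapped neither. Both overlapped 121 distal peaks (46.7%) and 223 of the others (43.3%), beside 44.4% of the whole list (Fisher exact test, odds ratio 1.15, adjusted p = 0.446).

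**Figure D3:**
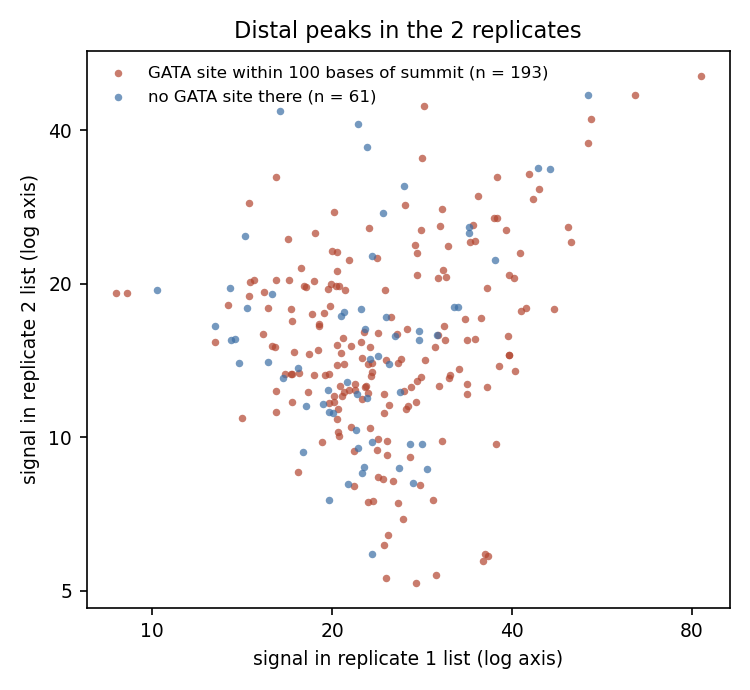
Signal of the 254 distal peaks with a summit in both replicate lists, replicate 1 on the horizontal and replicate 2 on the vertical axis (both log), coloured by whether a GATA site lay within 100 bases of the summit (193 with, 61 without). The points scatter widely, with Spearman's rho of 0.122, and the strongest peak is the point at the upper right, at 82.8 and 51.1.

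Among distal peaks without a GATA site, the strongest shared another sequence. CCTGCGCG, sought on both strands after the strong peaks had been seen, lay in the windows of the third, the sixth and the seventh strongest distal peaks, with 2 copies in each, as printed above. It is part of the MEX motif, known in this species from the elements on X that recruit the dosage compensation complex, which lowers X-linked transcription in hermaphrodites. The peak between F22H10.2 and F22H10.11 had a signal of 80.2 (44.2 in replicate 1 and 33.8 in replicate 2). The one between C34D10.1 and xol-1 had 77.1 (46.3 and 33.5), 4913 bases from the start of xol-1, the switch gene of sex determination and dosage compensation. The peak between F20B6.9 and hpk-1, the homeodomain-interacting protein kinase gene, had 64.1 (22.1 and 41.2) with 1 copy. The one between gtr-1 and F25E2.2 had 51.7 (24.4 and 27.6) with 2 copies. All 5 are on X and lack a GATA site in the spellings counted here, which does not mean that they lack the letters GATA. The windows printed for the third, the sixth and the seventh strongest distal peaks each hold GGATAA, the seventh on both strands. Of the 62 distal windows without a site, 42 held GATA in some context (67.7%). In 23 of the 62 (37.1%) a site lay elsewhere in the peak. The signals of the 5 peaks with CCTGCGCG and no site ran from 51.7 to 107 with a median of 77.1. In the other 57 distal peaks without a site, of which 22 are on X, signals ran from 29.7 to 63.9 with a median of 35.3. CCTGCGCG was noticed in the strongest windows without a site, so this difference was set by the choice and is no result. On X, the peak between F48B9.8 and F48B9.1 held 1 copy outside the summit window. It had 3 GATA sites near the summit and a signal of 38.4 (27.05 in replicate 1 and 9.13 in replicate 2).

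By chromosome, CCTGCGCG lay near the summit of 5 of 67 distal peaks on X (7.46%, interval 2.47 to 16.6) and of 1 of 192 on the autosomes (0.521%). The autosomal one, between swt-3 and srd-7, had a signal of 35.6 (21.0 in replicate 1 and 19.5 in replicate 2) and 2 GATA sites. Among other IDR peaks it lay near 4 of 113 on X (3.54%) and 0 of 402 on the autosomes, which allows a share of up to 0.746%. Signals of those 4 ran from 36.95 to 78.8, and the strongest, inside a coding gene, had 1 GATA site. Of tiled windows that meet the distal rule, 0.119% on X and 0.0838% on the autosomes held it. The sequence was picked from these peaks, so its counts and the signals given with it are a description with no test.

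By the rule, every distal peak is away from coding starts, and the distances ranged widely. The nearest coding start lay between 572 and 16809 bases from the summit, with a median of 2448. It lay 1000 to 2000 bases away for 94 peaks, 2000 to 5000 for 123, 5000 to 10000 for 28, more than 10000 for 9 and less than 1000 for 5, all 5 beyond the end of a short gene. The summit was upstream of that start in 178 of 259 (68.7%). The rule leaves out coding genes, so a summit downstream of its nearest start can only lie past that gene's end. No share of eligible bases was computed to set beside this. The farthest peak lies between irld-18 and dmd-6, a DM-domain transcription factor gene, with a signal of 32.3. A strong remote peak lies 11570 bases upstream of alr-1, a homeobox gene of the Aristaless type, with a signal of 61.7 (37.3 in replicate 1 and 26.9 in replicate 2). The other neighbour of this peak, C05C9.3, ends nearer, 5781 bases from the summit. In 35 peaks (13.5%) the summit was within 500 bases of the 3′ end of a flanking gene, again with no share of eligible bases computed. Nearest to the edge of the window, a peak beside C45B2.3 (30.3) lay 11 bases outside it and one beside Y47G6A.19 (38.5) lay 40 bases outside, while peaks beside C01B10.3 (43.8) and rhy-1 (46.9) lay 8 and 11 bases inside.

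Sequence that meets the distal rule amounted to 25.1 Mb, or 25.1% of the nuclear genome, so distal peaks numbered 10.3 per Mb of it. Gaps between divergent genes, where both neighbours start at the gap, held 94 distal peaks (36.3%, interval 30.4 to 42.5), against 29.9% of the eligible bases. Tandem gaps held 137 (52.9%), against 53.4% of bases. Convergent gaps, where both neighbours end, held 28 (10.8%, 7.31 to 15.2), against 16.5% of bases. The densities were thus 12.5 distal peaks per Mb in divergent, 10.21 in tandem and 6.76 in convergent gaps. Gaps of 3000 to 10000 bases held 143 distal peaks (55.2%), against 49.8% of bases, and those of 10000 to 20000 held 56 (21.6%), against 26.7%.

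Across chromosomes, II held 49 distal peaks, III 37 and X 67, at 13.7, 13.2 and 11.7 per Mb of eligible sequence. Chromosome I held 31 at 11.0 per Mb, IV 40 at 7.96 and V 35 at 6.76. Only on II and V did the eligible share lie outside the interval of the distal share, with 18.92% of distal peaks (14.34 to 24.23) against 14.27% of bases on II, and 13.5% of peaks (9.60 to 18.3) against 20.6% of bases on V. The share of the other 515 peaks lay outside the interval of the distal share on I and II. On I it was 20.97%, against 11.97% of distal peaks (8.28 to 16.56), and on II 13.59% against 18.92%. These differences were not tested. On X, the only chromosome tested, lay 67 of 259 distal peaks (25.9%) and 113 of 515 others (21.9%; Fisher exact test, odds ratio 1.24, adjusted p = 0.446). With the promoter window widened to 2000 bases upstream the odds ratio was 1.78 with an adjusted p of 0.0135 (Fisher exact test; range of adjusted p over 7 alternatives 0.0135 to 0.932), and eligible sequence itself was 22.8% on X.

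**Figure D4:**
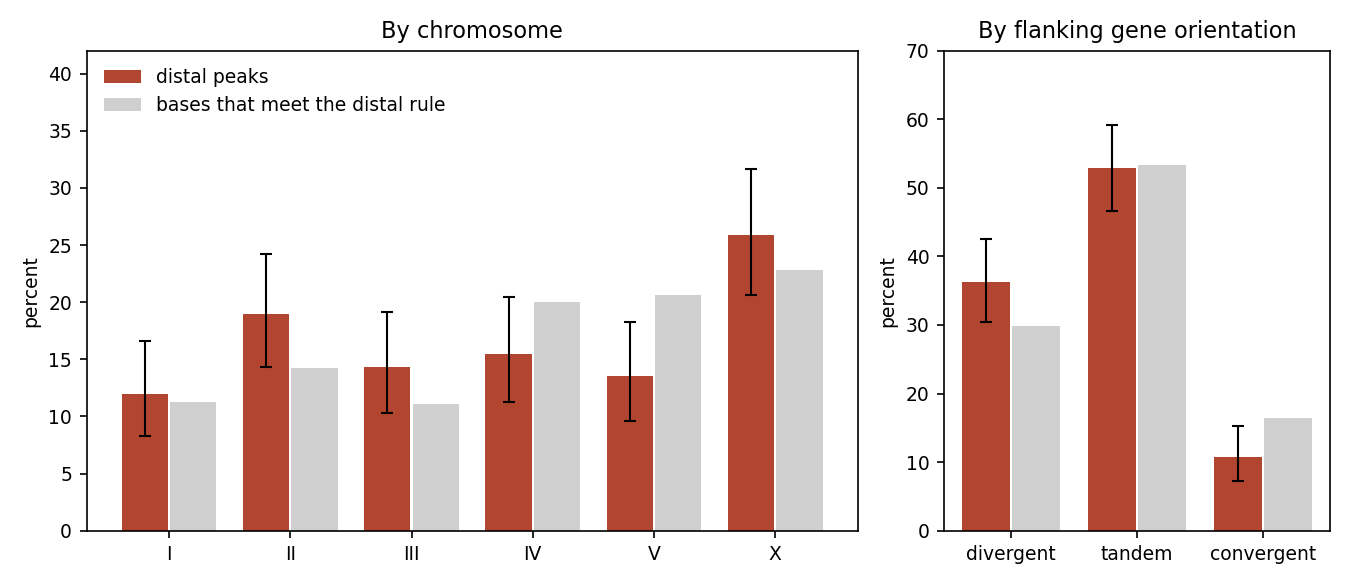
Percent of the 259 distal peaks (left bar of each pair, with 95% exact intervals) and percent of the bases that meet the distal rule (right bar), by chromosome in the left panel and by orientation of the flanking genes in the right panel. Divergent gaps held 36.3% of distal peaks against 29.9% of bases, and convergent gaps 10.8% against 16.5%.

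Distal peaks were spread over many gaps, and a minority shared one. The 259 peaks fell in 227 of 8997 gaps with eligible bases (2.52%), of which 201 held 1 peak, 21 held 2, 4 held 3 and 1 held 4. Peaks that shared a gap numbered 58 (22.4%, interval 17.5 to 27.97), and a GATA site was present in 47 of these (81.0%) and in 150 of the 201 alone in theirs (74.6%). Of all distal peaks, 6 overlapped another distal peak. The 2 between C17G10.6 and C17G10.7, with summits 204 bases apart, took the same replicate 2 value, 32.45. The gap with 4, of 35563 bases between irld-18 and dmd-6 on IV, had signals of 37.9, 32.3, 32.2 and 49.3 from left to right, the last 2245 bases from dmd-6. The replicate 1 values at these peaks were 14.5, 21.8, 20.2 and 36.4, and the replicate 2 values 28.9, 9.42, 11.7 and 12.5, so a different peak led in each replicate. Between snt-1, the synaptotagmin gene, and egl-27, which encodes an MTA-like chromatin protein with a role in epidermal cell fate, the signals were 35.1, 37.2 and 44.0. The other gaps with 3 were Y37D8A.4/Y37D8A.5 on III, got-2.2/W05H9.4 on X, beside an aspartate aminotransferase gene, and T14G8.3/bcat-1 on X, beside a branched-chain aminotransferase gene. Their 9 signals ran from 30.2 to 36.7, all below the distal median of 37.4.

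mdl-1, which encodes a Mad-like basic helix-loop-helix repressor, had distal peaks on both sides. The gap upstream of it, toward R03E9.2, held peaks of 51.6 (30.03 in replicate 1 and 20.5 in replicate 2) and 46.1 (20.4 and 23.1). For both, the start of R03E9.2 was nearer, at 3161 and 4359 bases, against 5889 and 4691 bases to mdl-1. The gap past the 3′ end of mdl-1, toward abts-4, held peaks of 49.8 (35.5 and 17.2) and 44.6 (31.4 and 13.1). The 44.6 summit lay inside the non-coding gene R03E9.10. With the promoter window taken around non-coding genes, the 51.6, 49.8 and 44.6 summits lay in those of R03E9.6, R03E9.10 and R03E9.7. All 4 peaks lay above the distal median, and all 4 held GATA sites, 5 in the strongest and 2 in each of the others. dmd-6 and irld-18 also had 4 distal peaks, and 9 other genes had 3. Over all distal peaks, the nearest other IDR summit lay within 5000 bases of 85 distal peaks (32.8%) and of 144 other peaks (27.96%). Taken apart, the share was 35.2% of peaks in coding genes and 19.05% of intergenic promoter peaks.

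**Figure D5:**
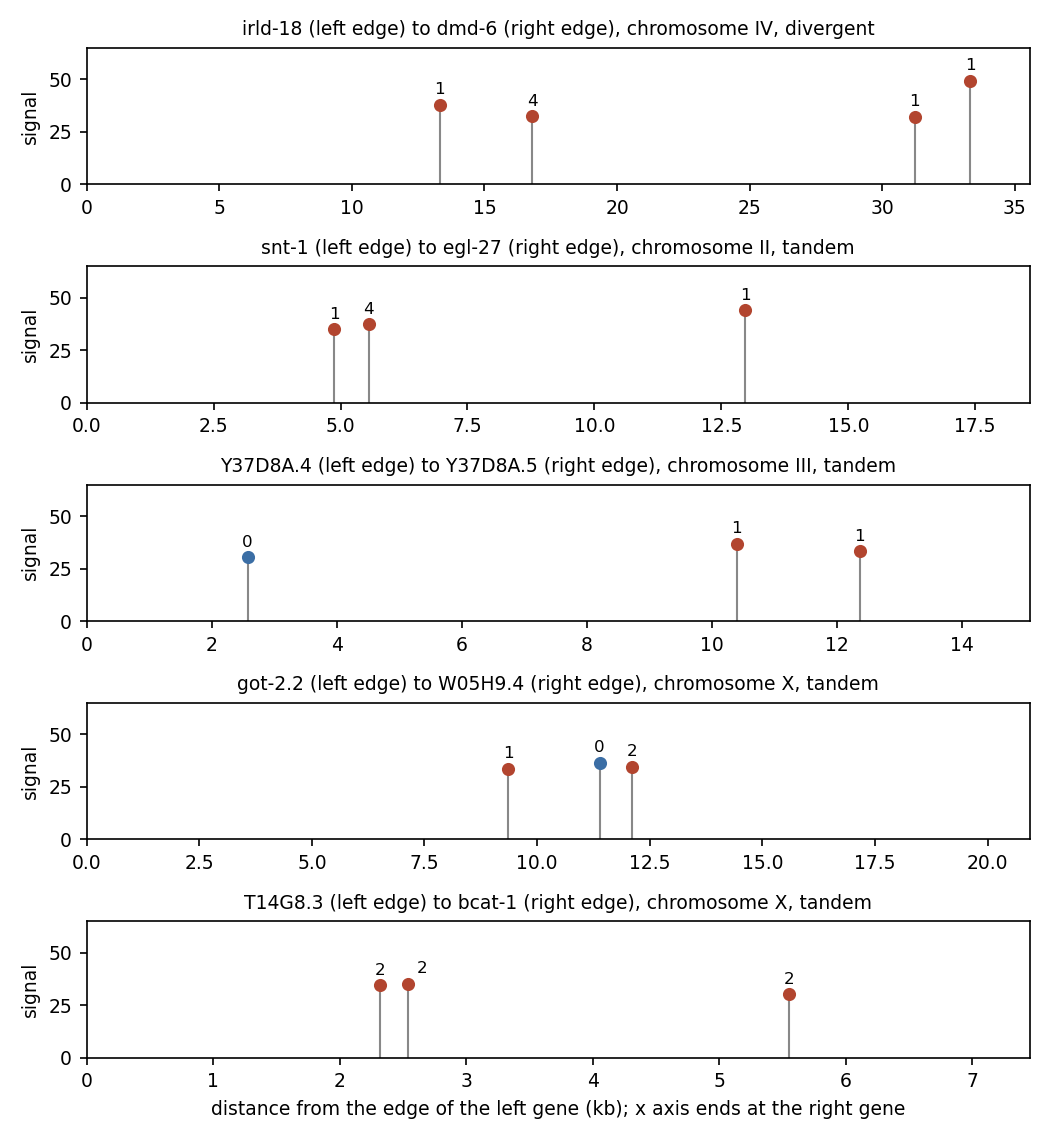
Signal of the distal peaks in the 5 gaps with 3 or more, by distance in kb from the edge of the left gene, with each horizontal axis ending at the right gene. Numbers give the GATA sites within 100 bases of the summit, red points have a site and blue points none, and signals run from 30.2 to 49.3.

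Distal peaks flanked 448 of the 13335 coding genes that have eligible sequence beside them (3.36%). Genes with long neighbouring gaps have more room for a peak, with a median of 7.20 kb of eligible sequence beside the 448 and 1.98 kb beside all 13335, so the median eligible sequence per gene of each list is given beside its count. Of 19 epidermal transcription factors with eligible sequence, elt-3 and egl-27 were flanked, with a median of 3.95 kb per gene. The peak beside elt-3, at chrX:13941289-13941628, had a signal of 53.6 (27.7 in replicate 1 and 22.99 in replicate 2), 1 GATA site, and alg-1, an Argonaute gene of the microRNA pathway, as its other neighbour. It lies 243 bases past the 3′ end of elt-3, where reads from copies of the transgene and from the gene itself cannot be told apart. elt-3 was the 1 flanked member of 11 GATA factor genes, which have a median of 3.87 kb of eligible sequence.

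Among cuticle genes, rol-6 and rol-8 were flanked of 13 body-shape collagens, with a median of 2.73 kb of eligible sequence. The rol-6 peak, 2512 bases upstream of the start, had 44.6 (24.5 in replicate 1 and 19.5 in replicate 2). The rol-8 peak, 157 bases past the 3′ end, had 43.3 (27.7 and 11.7) and 1 site, with fbxa-224 as its other neighbour. Of 101 numbered collagens 3 were flanked (2.97%, median 1.21 kb of eligible sequence), near the 3.36% of all genes. These were col-184 (38.8), col-181 (32.6) and col-166 (31.1), each with the summit 31 to 251 bases past the 3′ end. Their other neighbours were tre-4, W03G11.2 and lev-9. The col-184 window held 2 GATA sites, and those of col-181 and col-166 held none. nlp-24 was the 1 flanked of 19 antimicrobial peptide genes (median 0.872 kb). Of 20 molting and precuticle genes (median 4.80 kb), fbn-1, a fibrillin-related gene (40.6, 2255 bases upstream), and let-653, a gene of the luminal matrix (33.02, past its 3′ end and nearer to nhr-43), were flanked.

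Epidermal attachment and cytoskeleton genes had 5 of 20 members beside a distal peak (25%, interval 8.66 to 49.1), beside 3.36% of all eligible genes. Their median of eligible sequence was 5.25 kb per gene, against 1.98 kb over all eligible genes, and the part of this difference in the count was not tested. The 5 were dlg-1, the Discs large scaffold of the apical junction (40.01), mup-4, a transmembrane protein of the attachments (35.9), hmp-1, alpha-catenin (35.2), vab-19, a KANK-family protein (33.8), and let-805, myotactin (32.1). Their summits lay between 1192 and 11049 bases from the gene's near edge, and at hmp-1, vab-19 and let-805 another gene's start was nearer. In the same order, the other neighbours were dpyd-1, cgh-1, R13H4.5, ceh-86 and zmp-2. The windows at dlg-1 and hmp-1 held no GATA site, those at mup-4 and vab-19 held 1 each, and that at let-805 held 2. The dlg-1 summit lay inside the non-coding genes C25F6.10 and C25F6.12. The mup-4 peak had values of 23.2 in replicate 1 and 13.2 in replicate 2, and that of dlg-1 28.2 and 9.70. None of the 5 reached the upper quartile of distal signals, 46.3.

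Nuclear hormone receptors, a large family of ligand-regulated transcription factors in the worm, had 16 of 203 members beside a distal peak (7.88%, interval 4.57 to 12.5), above the 3.36% of all genes, with a median of 2.14 kb of eligible sequence per gene. The strongest peaks were at nhr-46 (60.3, 6647 bases upstream), nhr-97 (51.2, 1738 bases upstream), nhr-67 (47.2, 192 bases past the 3′ end) and nhr-3 (46.7, 1452 bases past the 3′ end). In the same order, the other neighbours were C31H1.2, C28D4.8, rap-3 and C44H4.4. The nhr-46 peak was high in each replicate, at 33.9 and 25.1, though it held no GATA site. nhr-258 and nhr-31 share a peak that held no GATA site, and nhr-119 had 2 peaks, so genes and peaks do not match one to one. Homeobox genes had 3 of 82 (3.66%, median 4.46 kb of eligible sequence), near the 3.36% of all genes. They were alr-1, ceh-86 and zfh-2, and the ceh-86 peak is the one counted above for vab-19. Basic helix-loop-helix genes had 3 of 33 (median 3.64 kb). Beside mdl-1 these were mml-1, a Mondo-like factor (39.2, no GATA site), and hif-1, the hypoxia-inducible factor (33.1). No list was tested, and the lists were drawn up with results of these data known.

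TGF-beta pathway genes had 1 of 17 (5.88%, median 3.77 kb of eligible sequence), which was sma-9. This Schnurri homologue of the body-size pathway had a peak of 41.9 with no GATA site, 2795 bases upstream. Patched-related genes had 1 of 24 (4.17%, median 5.003 kb), ptc-3. Both shares rest on 1 gene. Wnt genes had 0 of 18 (median 4.26 kb), a share of at most 16.7% by 3 counts. Hedgehog-related genes had 0 of 43, which allows up to 6.98%, with a median of 0.461 kb. Heterochronic genes had 2 of 9 (median 5.10 kb), lin-41 and hbl-1 (29.9, no GATA site), in both cases past the 3′ end. Detoxification genes had 1 of 125 (median 1.17 kb), cyp-14A5 (33.4), and chemoreceptor genes 9 of 977 (0.921%, interval 0.422 to 1.74), below the 3.36% of all genes, with a median of 1.66 kb. They were led by srd-55 (59.8, no GATA site), srxa-15 (48.5), srd-7 (43.7) and srh-16 (36.7). Ribosomal protein genes had 0 of 36, which allows up to 8.33%, with a median of 0.372 kb. Markers of intestine (0 of 17), body wall muscle (0 of 15) and neurons (0 of 14) had none, which allows up to 17.6%, 20% and 21.4%, all above the rate of all genes. Their medians of eligible sequence were 3.26 kb, 2.24 kb and 2.35 kb.

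Non-coding genes were not part of the rule, and 28 distal summits (10.8%) lay inside one, against 13.8% of eligible bases. In the same start window, taken around non-coding genes other than piRNAs, lay 64 (24.7%, interval 19.6 to 30.4), against 18.1% of bases. Within 2000 bases of a microRNA start were 8 of the 259 distal peaks, all named here after their values were seen. The share of eligible bases that near to a microRNA start was not computed. The count can thus not be read as high or low. The strongest, 311 bases from mir-79, is the peak of 64.8 between cbl-1 and lin-41, and mir-79 is a microRNA known from the worm epidermis. The peak near mir-238, between plg-1 and K01F9.2, had 43.7 (28.7 in replicate 1 and 14.2 in replicate 2) with 3 sites. The one 565 bases from mir-84, a member of the let-7 family of developmental timing microRNAs, had 34.6 (22.1 and 9.53) and no site. The remaining ones were near mir-5551 (51.2), mir-52 (34.9), mir-8196a (32.98, with the summit inside the gene), mir-47 (31.8) and mir-266 (30.7).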

How the data were processed

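Whole L3 larvae were profiled by ChIP-seq in 2 biological replicates of 1 group. The deposited ce11 lists give 1 region per line, and the authors' peak caller gave each a signal, the only measurement used here. The IDR list, per the descriptions deposited with it, was derived from both replicate lists and the pooled list. Not given in the sources used here were the aligner, the peak caller, the IDR threshold and the scale of the signal. Regions were 340 bases wide in the IDR list, 344 in replicate 1 and 336 in replicate 2. The ce10 lists were not used.

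Genes came from Ensembl release 115 (19973 protein-coding nuclear genes) and sequence from RefSeq WBcel235, the same assembly as ce11, with 1-based positions. Motifs were sought within 100 bases of the summit, and flanks were centred 500 bases away. Exact McNemar tests paired each summit with its own flanks, two-sided Fisher exact tests compared distal with other IDR peaks, and Benjamini-Hochberg adjusted p under 0.05 was called. Calculations used Python 3.11.15, numpy 2.4.6, scipy 1.17.1 and pandas 2.3.3 (figures: matplotlib 3.10.9) and were tested on simulated data. Intervals are 95% and cover counting error only, as does the limit of 3 counts given for a count of 0. Peaks are not replicates.

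Genes named by rule were elt-3, the neighbours of the 20 strongest distal peaks and of gaps with 3 or more, up to 4 members per list beside the strongest peaks, and the peaks nearest the window's edge. The peaks with CCTGCGCG, those near microRNAs and a few further neighbours were named after their values were seen. Members and lists were chosen with earlier results of these data known. Alternatives changed the promoter window, the genes considered, the peak list, the motif and its window, the flank and the overlap.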

Additional observations from a re-analysis of the deposited data

How the results depend on the processing

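Of 96 alternative values for 16 results, 77 changed little: counts stayed within 1.5 times, tests kept their direction and side of the threshold, and shares stayed within their 95% exact interval. Shares with a GATA site followed the window and spelling: 56.8% within 50 bases, 84.9% over the whole peak, 61.0% for TGATAA alone and 92.3% for GATA in any context, and without the peak beside elt-3, a setting chosen after seeing the data, the share was 76.0%. With the promoter window from 2000 bases upstream, 180 peaks were distal, the odds ratios against other peaks were 0.871 for a GATA site (Fisher exact test, adjusted p = 0.932) and 0.971 for both replicates (adjusted p = 0.932), both reversed, and 1.78 for X (Fisher exact test, adjusted p = 0.0135), convergent gaps held 15.6% and 2.97% of genes were flanked. With genes of any biotype, the odds ratios were 0.816 for X (Fisher exact test, adjusted p = 0.731), reversed, and 1.0 for the share above the median signal (adjusted p = 1.0), 16.1% of peaks shared a gap and 2.63% of genes were flanked. The 387 strongest IDR peaks held 135 distal peaks, of which 13.3% shared a gap, and 1.88% of genes were flanked. Fewer genes or peaks entered these settings by construction, and other causes were not tested. With flanks at 1000 bases, 44 sequences were more frequent at summits and 41 less frequent.

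Leaving out 1 replicate (the strongest regions of the other alone) gave 237 to 254 distal peaks, a GATA site in 73.4 to 75.2%, odds ratios against other peaks of 1.17 to 1.48 for a GATA site (Fisher exact test, adjusted p = 0.0491 for replicate 2 alone) and 15.6 to 25.2% of peaks sharing a gap. The lowest share was that of replicate 2 alone. Both McNemar comparisons passed under all 7 alternatives run for each. No paired analysis was possible because there is 1 group. Without peaks that hold CCTGCGCG, an alternative chosen in the same way, the odds ratio for X was 1.197. Depth is unknown, so no limit of detection can be given.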
